A study of Homo sapiens with 4 samples.

Results

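The second internal transcribed spacer (ITS2) is the stretch of the 47S pre-rRNA between 5.8S and 28S. Its members here are the 1155 nucleotides that the deposited position tables assign to ITS2, positions 6778 to 7932, out of 13780 in the whole 47S. The study recovered RNA crosslinked to a tagged protein by CRAC (crosslinking and analysis of cDNA). The cells were Flp-In T-Rex HEK293, derived from human embryonic kidney and built to take up a construct at a fixed site. The construct coded for NKRF with a Flag-His tag or for the Flag-His tag alone, and tetracycline was given for 24 h to switch it on. There were 4 libraries, 1 per group. These were the tag alone and tagged NKRF after irradiation at 254 nm (UV), and the tag alone and tagged NKRF after 6 h in 100 µM 4-thiouridine and irradiation at 365 nm (PAR). With 1 library per group no difference below has a replicate check or a test across samples, and every interval covers counting error only. The tagged protein came from an introduced construct, and its level relative to the cell's own NKRF is not given in the sources used here.

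ITS2 is present in precursors and absent from mature ribosomes. It is first cut by an endonuclease, after which the piece attached to 5.8S is trimmed from its 3′ end by the RNA exosome and the piece attached to 28S is trimmed from its 5′ end by a 5′-3′ exonuclease such as XRN2. NKRF is a G-patch protein, a class known to bind and activate RNA helicases, and the series studies it together with XRN2 and the helicase DHX15. The repeats that encode the 47S pre-rRNA lie in arrays on the short arms of the acrocentric chromosomes, so positions are given in the deposited 47S coordinates and, unless stated otherwise, counted from 1 at the first nucleotide of ITS2.

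Of the 7 segments of the 47S pre-rRNA, ITS2 had the highest content of G and C, at 83.1% against 72.6% of the whole. It held 43.0% C, 40.1% G, 11.8% T and 5.11% A, and its 136 T were the positions at which 4-thiouridine can be read. None of its 1136 stretches of 20 nt occurred again elsewhere in the 47S sequence.

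The sequences below are those of the highest coverage peaks, because most of the results concern them, and of the nucleotides next to 5.8S, which were compared with the rest of ITS2. They are written 5′ to 3′ with the letters of the deposited tables. Capitals mark a T with a substitution in 50% or more of its NKRF PAR reads or a base deleted in at least 10% of NKRF UV reads. A peak runs to the outermost neighbouring positions still at 50% of its height.
Highest NKRF UV peak, 492 to 524 (7269 to 7301 of the 47S): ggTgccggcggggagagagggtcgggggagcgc
NKRF UV peak 2, 535 to 575 (7312 to 7352): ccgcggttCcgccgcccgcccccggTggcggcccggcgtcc
NKRF UV peak 3, 159 to 188 (6936 to 6965): cgggccctgcgtggtcacgcgtcgggtggc
Highest NKRF PAR peak, 542 to 568 (7319 to 7345): tCcgccgcccgcccccggTggcggccc
NKRF PAR peak 2, 398 to 440 (7175 to 7217): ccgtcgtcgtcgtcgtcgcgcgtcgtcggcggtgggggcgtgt
NKRF PAR peak 3, 330 to 382 (7107 to 7159): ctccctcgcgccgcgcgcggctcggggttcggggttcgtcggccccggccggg
NKRF PAR peak 4, 604 to 635 (7381 to 7412), shown because UV had no peak there: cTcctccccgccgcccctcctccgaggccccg
Next to 5.8S, 1 to 100 (6778 to 6877): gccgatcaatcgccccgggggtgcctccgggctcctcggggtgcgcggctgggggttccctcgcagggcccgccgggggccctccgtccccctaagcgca
Of these, NKRF UV peak 3 and NKRF PAR peaks 2 and 3 carry no capital, although all 3 contain several T. The first 100 nt carry none either.

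ITS2 was covered far more with NKRF than with the tag alone in both modes. Coverage is given in normalised hits, the number of hits per 1000000 reads of a library. In the tag-only UV library ITS2 had a mean of 13.9 normalised hits and a maximum of 115, with coverage at 992 of the 1155 positions. In the NKRF UV library the mean was 553, the maximum 4387, and every position was covered, the lowest by 9 normalised hits. In the tag-only PAR library the mean was 3.47 and the maximum 27, with coverage at 314 positions. In the NKRF PAR library the mean was 237, the maximum 996, and 1088 positions were covered. The lowest NKRF mean was thus above the highest tag-only mean. These profiles need at least 462, 14972, 16.2 and 1567 reads in the same order, so the tag-only PAR profile of ITS2 rests on few reads.

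As a share of the 47S coverage, ITS2 held 0.326% in the tag-only UV library (95% Clopper-Pearson interval 0.288 to 0.367%) and 5.40% in its NKRF counterpart (5.31 to 5.50%). In the PAR pair it held 1.19% (0.621 to 2.08%) and 6.83% (6.50 to 7.17%). The ratio of the shares was 16.6 with UV, with an interval from 15.1 to 18.2 by the exact binomial split of the reads, and 5.74 with PAR (3.53 to 10.1). Per 1000000 reads of the library the ratio was 39.9 with UV (36.4 to 43.9) and 68.4 with PAR (42.0 to 120). The order of the modes therefore turned with the scale, because the 47S coverage as a whole also rose with NKRF. The whole 47S had a mean coverage of 357 (tag alone) and 857 (NKRF) normalised hits after UV crosslinking and of 24.4 and 291 after PAR crosslinking.

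Among the spacers, ITS2 took a larger part in NKRF UV than in any other library. It held 42.1% of all spacer coverage there, against 9.86% in the tag-only UV library, 10.4% in the tag-only PAR library and 13.5% in the NKRF PAR library. ITS1, the spacer before 5.8S, held 10.9% and 7.92% of spacer coverage in the NKRF and tag-only UV libraries and 12.2% and 17.4% in the PAR libraries. Per 1000000 reads, the UV ratio of ITS2 (36.4 to 43.9) lay above those of ITS1 (12.8, 12.1 to 13.6) and of the 5′ external transcribed spacer (5′ ETS) at the front of the transcript (5.31, 5.12 to 5.52). In the PAR pair the intervals of ITS2 (42.0 to 120), ITS1 (26.7 to 51.8) and the 5′ ETS (44.3 to 65.3) overlapped. These intervals compare libraries, not conditions.

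**Figure D1:**
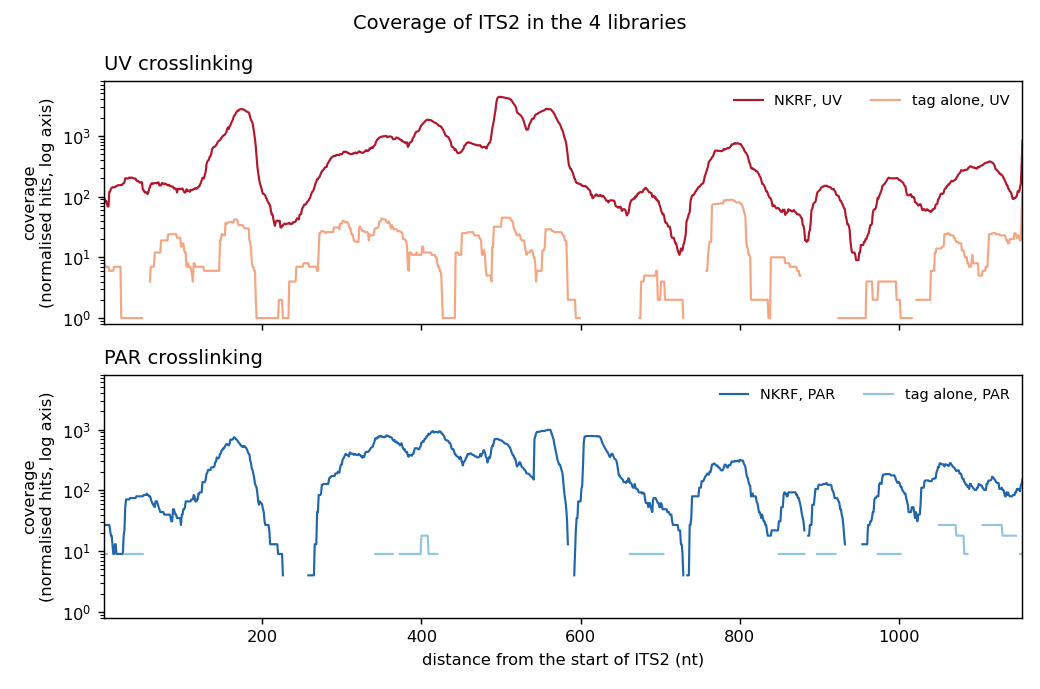
Coverage along ITS2 in normalised hits on a log axis, by distance from its first nucleotide, with UV libraries in the upper panel and PAR libraries in the lower panel. Positions at 0 are not drawn. NKRF coverage is highest between 301 and 600. After PAR crosslinking NKRF coverage falls to 0 from 585 to 591 and forms a further peak at 604 to 635. The tag-only PAR line never passes 27 normalised hits.

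Coverage was uneven along ITS2, and the central part held most of it with NKRF. Positions 301 to 600, 26.0% of the length and a range singled out after its values were seen, held 64.5% of ITS2 coverage with NKRF UV and 54.9% with NKRF PAR. In the tag-only libraries they held 37.5% with UV and 18.0% with PAR. The UV means over these positions were 20.01 (tag alone) and 1372 (NKRF) normalised hits, and the PAR means were 2.4 and 501. The ratio of 47S shares over this range was 28.5 with UV (24.4 to 33.5) and 17.5 with PAR (5.98 to 85.3), where 3.03 tag-only reads lay behind the value.

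Towards 5.8S, a narrower block at 101 to 200 averaged 1013 (NKRF) and 16.4 (tag alone) normalised hits in the UV libraries, and the ratio of 47S shares was 25.7 (19.5 to 34.6). After PAR crosslinking the NKRF mean was 304, and no read of the tag-only library covered the block. Between these blocks coverage fell steeply, to means of 50.6 normalised hits with NKRF UV and 9.38 with NKRF PAR at 201 to 250.

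Towards 28S, coverage was lower. Positions 601 to 1155, 48.1% of the length, held 14.7% of the ITS2 coverage with NKRF UV and 30.3% with NKRF PAR, but 39.7% with the tag alone after UV and 75.5% after PAR. Positions 751 to 850 stood out in this part, with UV means of 37.1 (tag alone) and 392 (NKRF) normalised hits and PAR means of 0.18 and 164. They held 23.2% of the tag-only UV coverage of ITS2 against 6.15% of the NKRF UV coverage. Their UV ratio of 47S shares was accordingly low for ITS2, at 4.40 (3.52 to 5.56). At 651 to 750 the NKRF means were 74.0 and 69.0 normalised hits with UV and PAR, and at 851 to 1050 they were 86.0 and 82.9.

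ITS2 was then divided into 23 windows of 50 nt, the last taking the remainder. Windows with a mean of at least 20 normalised hits in the tag-only or the NKRF library of a mode were examined. The call was higher where the ratio of 47S shares reached 2-fold with a pseudocount of 1 normalised hit. After UV crosslinking 23 of 23 windows were higher and 0 lower, where 61.6% of the 250 windows examined over the 47S pre-rRNA were higher and 6.40% lower. The median log2 ratio was 3.51 in ITS2 and 1.67 over all windows. After PAR crosslinking 15 of 22 windows were higher and 1 was lower, where 43.3% of 240 windows over the 47S were higher and 32.5% lower. Since all 23 windows were higher with UV, the 15 were necessarily called in both modes, which adds nothing to the PAR count. Over the 47S, 40.0% of the 235 windows examined in both modes were called in both.

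The UV calls were well supported by reads and the PAR calls much less so. With UV the interval of the ratio lay above 1 in 22 of the 22 windows with tag-only coverage, and the remaining window, 601 to 650, was at least 12.03-fold higher. With PAR the tag-only coverage was 0 in 9 of the 15 windows called higher. Against a floor of 3 reads spanning the window the ratio was above 1 in 5 of these 9 and reached 2-fold in 0. Of the other 6 windows, 5 had an interval above 1. The median PAR log2 ratio of ITS2 was 2.46 with the pseudocount and 0.37 with the 9 windows set at their bound.

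Per 1000000 reads of the library, 23 of 23 windows were higher with UV and 22 of 22 with PAR, where 86.0% and 84.6% of all windows were. None of ITS2 was lower on this scale in either mode, where 0.00% of all windows were with UV and 3.75% with PAR. With PAR a lower call could not arise in ITS2, so its absence is not informative. The highest tag-only PAR mean of an ITS2 window was 18.8 normalised hits, at 1101 to 1155, below the minimum for examination. All 22 windows were thus examined on their NKRF mean alone. In 9 of them the tag-only coverage was 0, so the minimum and the pseudocount alone made the call higher. Against the floor of 3 reads, 8 of these 9 were above 2-fold per 1000000 reads. As shares of spacer coverage alone, 15 of 23 were higher and 0 lower with UV, where 30.4% and 36.4% of all windows were. On that scale 9 of 22 were higher and 8 lower with PAR, where 24.6% and 57.5% were. The highest UV ratio of 47S shares was at 401 to 450, 68.4-fold (45.1 to 109), and the lowest at 751 to 800, 3.63-fold (2.88 to 4.65). Among PAR windows with tag-only coverage the highest was at 301 to 350, 24.5-fold (4.36 to 974), with 1.01 reads behind the tag-only value. The lowest was at 1101 to 1155, a ratio of 0.506 (0.189 to 1.91), which was 6.03 (2.25 to 22.8) per 1000000 reads.

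**Figure D2:**
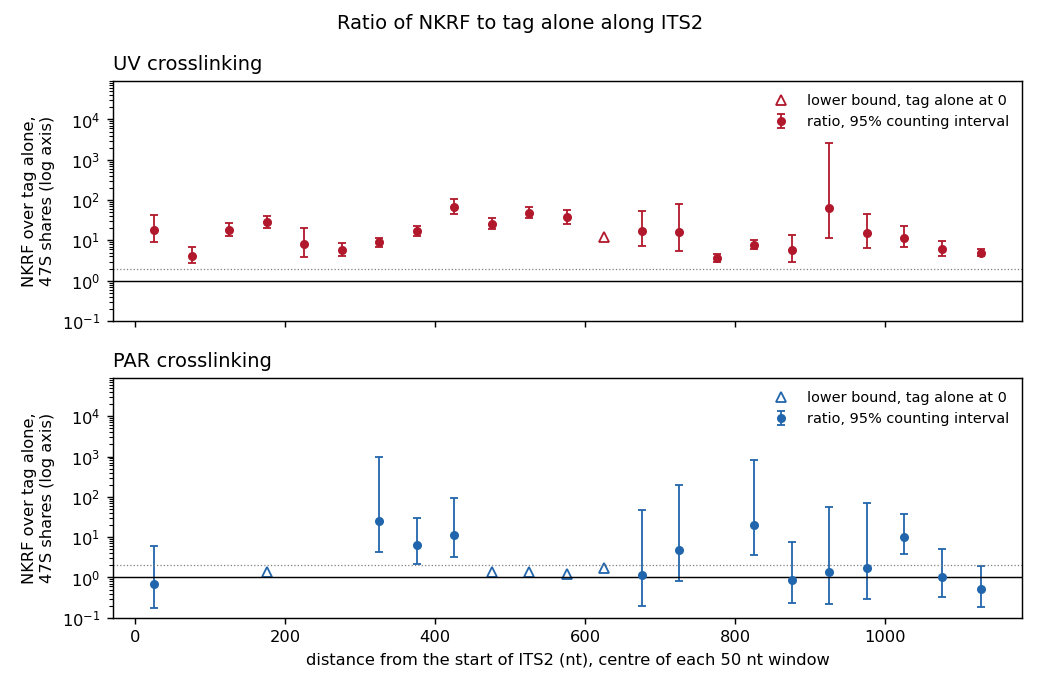
Ratio of NKRF to tag alone in shares of 47S coverage for each 50 nt window of ITS2, on a log axis, with 95% counting intervals. The dotted line marks 2-fold, open triangles are lower bounds where the tag-only coverage was 0, and bounds under 1 are not drawn. All UV points lie above 2-fold, while PAR points range from 0.506 to 24.5.

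Peaks were sought from the highest position downwards, to 10% of the ITS2 maximum of each library. There were 10 in the NKRF UV library, 19 in the NKRF PAR library, 13 in the tag-only UV library and 2 in the tag-only PAR library. The positions of an NKRF peak were chosen for high NKRF coverage, which tends to raise the ratio to the tag alone over them. The peak ratios below describe those positions and are no independent support for enrichment, and their intervals do not cover that choice. The first NKRF UV peak had its summit at 499 (7276 of the 47S). UV coverage at that nucleotide was 32 normalised hits with the tag alone and 4387 with NKRF, and PAR coverage was 0 and 673. Over 492 to 524 the UV ratio of 47S shares was 42.5 (31.1 to 59.9). This peak of 33 nt alone held 18.8% of the ITS2 coverage of the NKRF UV library, and its 5′ edge was steep, with a rise from 2616 to 3369 normalised hits on entering position 494.

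The second NKRF UV peak, with its summit at 557, coincided with the highest NKRF PAR peak, with its summit at 559. At 557 the UV coverage was 29 (tag alone) and 2804 (NKRF) normalised hits, and the PAR coverage was 0 and 979. The UV ratio over 535 to 575 was 51.1 (36.1 to 74.8), and the PAR ratio was at least 2.09. The 5′ edges differed between the modes. NKRF UV coverage passed smoothly through this border, while NKRF PAR coverage jumped from 151 normalised hits at position 541 to 695 at 542, the largest step in the PAR profile of ITS2.

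The third NKRF UV peak had its summit at 174, with UV coverage of 34 and 2759 and PAR coverage of 0 and 545 normalised hits for the tag alone and NKRF. Its UV ratio was 29.96 (21.6 to 42.9) over 159 to 188. The fifth NKRF PAR peak, with its summit at 165 and edges at 147 and 184, overlapped it. Both peaks fell off most steeply after position 184, from 2291 to 1994 normalised hits with NKRF UV and from 390 to 310 with NKRF PAR.

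The fourth NKRF UV peak, at 390 to 434 with its summit at 408, was matched by the second NKRF PAR peak, at 398 to 440 with its summit at 414. At 408 the tag alone and NKRF had 12 and 1856 normalised hits with UV and 18 and 819 with PAR. The UV ratio over 390 to 434 was 67.9 (39.6 to 128) and the PAR ratio was 7.71 (2.11 to 64.1). With edges at 25% of the height, where the peak is wider, the UV ratio was 17.3. T made up 22.2% of this peak against 11.8% of all of ITS2. The fifth NKRF UV peak, at 301 to 379 with its summit at 355, was broader and was matched by the third NKRF PAR peak, with its summit at 356. Its heights were 1000 normalised hits with NKRF UV and 806 with NKRF PAR at the respective summits, and its UV ratio was 10.1 (8.0 to 13).

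The fourth NKRF PAR peak overlapped no NKRF UV peak. At its summit, position 608, 788 normalised hits were measured with NKRF PAR, 143 with NKRF UV and 0 in both tag-only libraries. The window 601 to 650 was the only 1 of 23 in which NKRF PAR coverage was more than 2-fold that of NKRF UV, at 544 against 103 normalised hits, a ratio of 5.28. Over all of ITS2 the same ratio was 0.429. The 5′ edge of this peak was abrupt, with a step from 257 to 620 normalised hits on entering position 604.

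The highest parts of the NKRF profiles otherwise overlapped. All 10 NKRF UV peaks overlapped an NKRF PAR peak by at least 1 nt, and 11 of 19 NKRF PAR peaks (57.9%) overlapped an NKRF UV peak. Besides the one at 608, the 7 NKRF PAR peaks without an overlap were lower, from 106 to 283 normalised hits, the highest of them at 1064. From an NKRF UV summit to the nearest NKRF PAR summit the median distance was 4.5 nt (0 to 12). The shared nucleotides were 79.9% of the 348 nt in NKRF UV peaks and 51.2% of the 543 nt in NKRF PAR peaks, where NKRF UV peaks covered 30.1% of ITS2 and NKRF PAR peaks 47%. T made up 14.9% of NKRF UV peaks, 15.3% of NKRF PAR peaks and 7.75% of the 542 nt outside both.

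Of the 13 tag-only UV peaks, at heights of 13 to 115 normalised hits, 10 overlapped an NKRF UV peak by at least 1 nt. NKRF UV peaks cover 30.1% of ITS2 and peaks are wide, so part of such a count is expected from their extent. Across the 23 windows the Spearman correlation was 0.75 between the NKRF libraries, 0.80 between the UV libraries, 0.52 between NKRF PAR and tag-only UV, and -0.06 between the PAR libraries. The windows share sequence and mapping in all libraries and the UV libraries share the crosslinking mode, so these values describe likeness only. Whether the reads of the tag-only UV library come from the same RNA ends as those of NKRF was not tested.

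**Figure D3:**
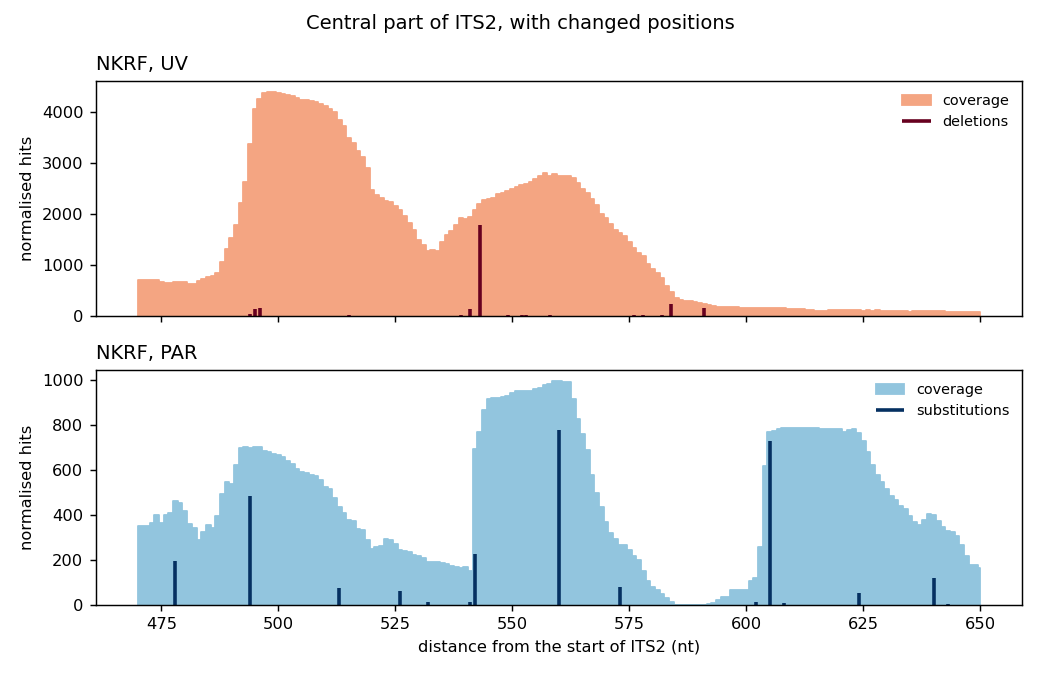
Coverage from just before the highest NKRF UV peak to position 650 in normalised hits for NKRF UV (upper panel) and NKRF PAR (lower panel), by distance from the start of ITS2, with bars for deletions and for substitutions. The NKRF PAR step at 542 lies next to the NKRF UV deletions at 543, and NKRF PAR coverage is 0 from 585 to 591.

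Next to 5.8S, NKRF coverage was below the mean of the rest of ITS2. The first 100 nt are 8.66% of the length of ITS2. They held 5.62% of its coverage in the tag-only UV library (3.71 to 8.14%), 2.39% in the NKRF UV library (2.15 to 2.64%), 6.52% in the tag-only PAR library (0.158 to 30.2%) and 1.75% in the NKRF PAR library (1.14 to 2.50%). The NKRF UV interval lay below that of the tag-only UV library, and the PAR intervals overlapped. The UV order held at 100 nt but not at the other lengths tried, since the first 50 nt held 1.11% with the tag alone and 1.24% with NKRF, and the first 200 nt held 15.9% and 18.3%. In normalised hits the means of the first 100 nt were 8.99, 152, 2.61 and 48.0 in the same order, against 14.3, 591, 3.55 and 255 in the rest of ITS2. The rest was thus covered 3.88 times as highly as the first 100 nt with NKRF UV and 5.31 times as highly with NKRF PAR. The peaks carry much of that difference, since 8 of the 21 windows beyond the first 100 nt had an NKRF UV mean below 152, and 2 of 21 had an NKRF PAR mean below 48.0. The median over all of ITS2 was 178 normalised hits with NKRF UV and 128 with NKRF PAR.

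NKRF still exceeded the tag alone there. The UV ratio of 47S shares was 7.04 in the first 100 nt (4.83 to 10.7) and 17.2 in the rest (15.6 to 18.9), intervals that did not overlap. With PAR it was 1.55 (0.397 to 13.3) and 6.04 (3.59 to 11.1), which overlapped, with 2.02 tag-only reads behind the first value. The lower UV ratio came from positions 51 to 100, at 4.22 (2.73 to 6.85), while positions 1 to 50 were at 18.6 (9.28 to 43.4). None of the 10 NKRF UV or 19 NKRF PAR peaks had its summit in the first 100 nt.

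The borders of ITS2 were sharp with UV crosslinking. With NKRF UV the last 20 nt of 5.8S averaged 2644 normalised hits and the first 20 nt of ITS2 averaged 121. In the tag-only UV library these means were 325 and 6.80, in the NKRF PAR library 103 and 18.4, and in the tag-only PAR library 26.6 and 2.25. The step lay at the very end of 5.8S with NKRF UV. Coverage went from 1045 normalised hits at its second to last nucleotide to 229 at the last and 97 at the first of ITS2. The tag-only UV values at these nucleotides were 129, 42 and 8, so the step was seen in both UV libraries. With NKRF PAR the values at these nucleotides were 31, 27 and 27, so no such step was seen. The tag-only PAR values were 18, 18 and 9, which rest on few reads. At the other border NKRF UV coverage rose from 330 to 841 normalised hits at the last nucleotide of ITS2 and to 2036 at the first of 28S. The tag-only UV values at these 3 nucleotides were 59, 115 and 511, so reads beginning at the 28S border were recovered in both UV libraries. In the PAR libraries no such rise was seen, with 128, 151 and 151 normalised hits for NKRF and 9 at all 3 nucleotides for the tag alone.

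**Figure D4:**
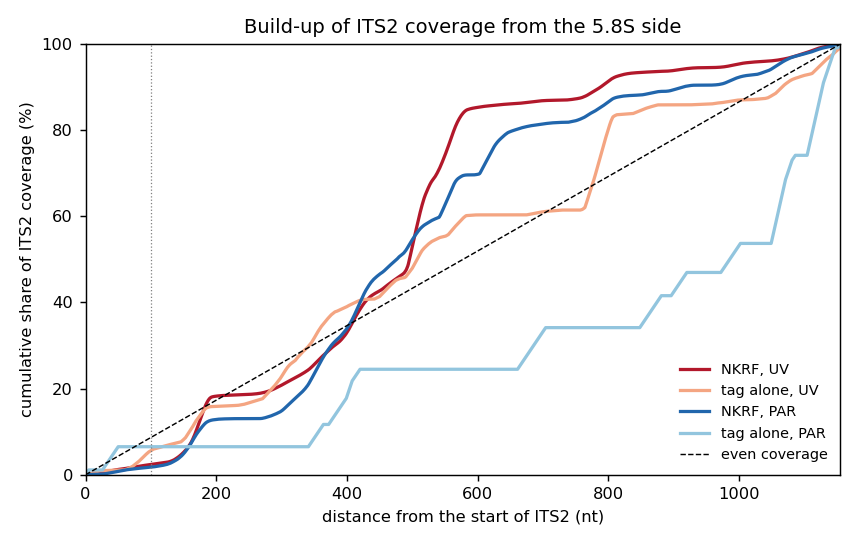
Cumulative share of the ITS2 coverage in percent, by distance from the first nucleotide of ITS2, for the 4 libraries, with even coverage as a dashed line and position 100 as a dotted line. Coverage reaches 50% at 496 and 477 in the NKRF UV and PAR libraries, at 508 in the tag-only UV library and at 986 in the tag-only PAR library.

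The remaining values are of bases misread or skipped in the cDNA, which crosslinks can leave behind. A 4-thiouridine joined to protein is often copied wrongly, which appears as a substitution at T, and the enzyme can pass over a base at a UV crosslink, which appears as a deletion. With NKRF PAR, 22.6% of the coverage at the T of ITS2 was substituted. The deposited values held substitutions at 0 of the A, C or G positions. With NKRF UV, 2.63% of the coverage at A, 2.29% at C and 0.766% at G was substituted. Whether the PAR values were limited to T before deposit is not given in the sources used here. The 0 is therefore no measure of how specific the PAR substitutions were to T. At least 10 NKRF PAR reads covered 122 of the 136 T. The median share of substituted reads was 17.1%, and 13 of the 122 carried none.

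In 13 of the 122 T (10.7%) at least 50% of the reads were substituted, where 8.36% of 1507 T over the 47S pre-rRNA were. The highest share was at position 605 (7382 of the 47S), 94.8% of 174 reads (90.4 to 97.6%), which lies at the 5′ edge of the fourth NKRF PAR peak. Position 867 followed with 90.5% of 21 reads (69.6 to 98.8%), and position 560, in the highest NKRF PAR peak, with 78.2% of 225 reads (72.3 to 83.4%). Position 703 had 72.7% of 11 reads (39.0 to 94.0%), and position 494, at the steep edge of the highest NKRF UV peak, had 69.6% of 158 reads (61.8 to 76.7%). These T differ widely in the number of reads behind them.

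Position 820 was substituted in 66.7% of 18 reads, position 758 in 60% of 40, position 113 in 56.2% of 16 and position 125 in 54.8% of 31. The 4 others were position 975 at 53.6% of 28 reads, position 455 at 52.1% of 71, position 1114 at 51.5% of 33 and position 923 at 50% of 16. The lower bound of the interval was above 50% at 494, 560, 605 and 867 among the 13. The T nearest below the threshold were positions 36 and 693, each at 47.1% of 17 reads. Position 494 had 0 other T within 15 nt, and the 13 T had a median of 3, against 4 for the other T with at least 10 reads.

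After UV crosslinking the same 13 T were substituted in 0 to 7.08% of NKRF reads, with a median of 2.82%, and the other T had a median of 1.25%. At position 605 the NKRF UV share was 0% of 162 reads (up to 2.25%), and at position 560 it was 0.975% of 2973 reads (0.654 to 1.40%). The high shares were therefore those of the PAR library alone among the NKRF libraries. Coverage of the tag-only PAR library at the 13 T was 0 to 27 normalised hits, and its substitutions were not analysed here.

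Deletions in the NKRF UV library were concentrated at few positions of ITS2. Deleted bases were 0.497% of the ITS2 coverage of that library and 0.0750% of the tag-only UV coverage. At least 10% of reads were deleted at 3 of 1155 positions (0.260%), where 0.250% of 12780 positions over the 47S were. In the tag-only UV library this held for 1 of the 452 ITS2 positions with at least 10 reads, where 0.328% of 7926 positions over the 47S did. It was position 72, with 1 deleted read of 10 (0.253 to 44.5%) and no deletion in the NKRF UV library. The first of the 3, position 543 (7320 of the 47S), was deleted in 81.0% of 2391 NKRF UV reads (79.3 to 82.5%) and held 56.4% of all deleted bases of ITS2. Another 15% of its reads were substituted, so that 96.0% carried a change. Position 591 was deleted in 64.2% of 246 reads (57.9 to 70.2%) and position 584 in 52.4% of 496 reads (47.9 to 56.9%). Without the 3 positions the deleted share was 0.159% with NKRF and 0.0313% with the tag alone. The tag-only shares with and without these positions rest on only 10.1 and 4.21 deleted bases in reads. Those with NKRF rest on 3449 and 1096.

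The few tag-only reads at these positions were deleted as well. At position 543 the deletion was in 3 of 7 tag-only UV reads (9.90 to 81.6%), at 584 in 2 of 2 (15.8 to 100%) and at 591 in 1 of 2 (1.26 to 98.7%). The tag-only and NKRF intervals overlapped at all 3, so a difference in the deleted share was not detectable at this depth. Whether these deletions mark crosslinks was not tested. Each of the 3 is the first base of a run of the same letter, of 2, 2 and 4 bases at 543, 584 and 591, within which the deleted base cannot be placed.

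NKRF PAR coverage changed abruptly beside the same positions. Its step from 151 to 695 normalised hits lay 1 nt before 543, it stood at 13 at position 584, and it was 0 from 585 to 591, where NKRF UV coverage was 226 to 347 normalised hits. The PAR tables hold no deletions, and whether reads with a deleted base were kept in them is not given in the sources used here. The part of this in the shape of the NKRF PAR peaks at 542 to 568 and 604 to 635 was not tested.

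The NKRF UV deletion positions are bases other than T, so they could not fall on the T substituted with PAR. The nearest T substituted in at least 50% of reads was 17 nt away from 543 (position 560), 21 nt from 584 (position 605) and 14 nt from 591 (position 605), in each case towards 28S. Over all 1155 positions the median distance to such a T was 24 nt (quartiles 12 and 58.5), and 45.4% of them were within 21 nt. The distances of the deletion positions were therefore not unusual for ITS2. To T substituted in at least 20% of reads the median was 11 nt from the deletion positions and 7 nt from all positions. The nearest T of any kind was 1 nt from 543, at position 542 with 32.5% substituted, and 1 nt from 591 and 6 nt from 584, at position 590, where NKRF PAR coverage was 0.

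**Figure D5:**
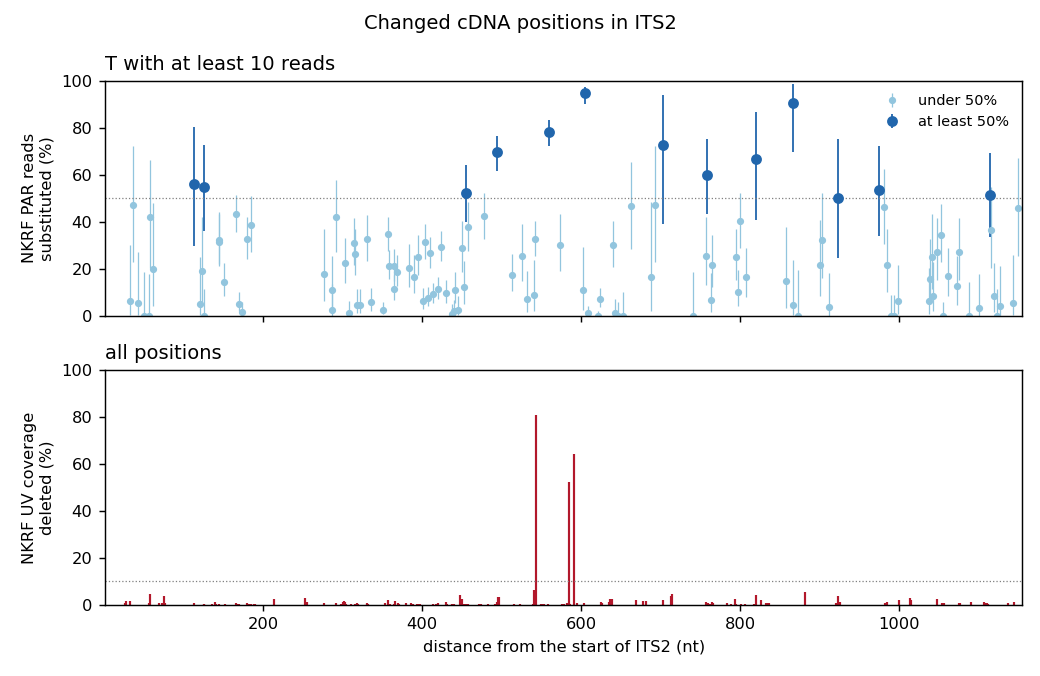
Upper panel, percent of NKRF PAR reads substituted at each of the 122 T with at least 10 reads, with 95% Clopper-Pearson intervals and dark points for the 13 at 50% or more. Lower panel, percent of NKRF UV coverage deleted at each position, by distance from the start of ITS2. The deletions at 543, 584 and 591 stand far above the dotted line at 10%, between the substituted T at 494, 560 and 605.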

How the data were processed

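Per the labels' protocols, complexes were purified on anti-FLAG beads and under denaturing conditions on Ni-NTA, RNA was trimmed, adapters were ligated and cDNA was amplified by PCR. Molecular identifiers are not mentioned, so PCR reads are not independent molecules. The submitters' processing notes name Bowtie2 2.2.4. The build and the filters on reads were not stated.

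The deposited signal is coverage per nucleotide, with substitutions and, for UV, deletions on the same scale. From its values it was scaled to 1000000 reads and rounded. The deposited class score summed to 1000214 to 1000504 per library, which gave that scale. The header of the tag-only PAR table is shifted, and its coverage was read from the column headed as substitutions.

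The value of 1 read was fitted to the spacing of low coverage values (up to 60), at 1.19 (tag alone) and 0.92 (NKRF) normalised hits with UV and 8.91 and 4.43 with PAR, or about 841751, 1086960, 112259 and 225734 reads. The fit was tested on simulated data (5 cases, largest error 0.444%). Reads behind a region are the least that produce its profile, the sum of its rises. Values of 0 have a floor of 3 reads spanning the region, and a ratio is then a lower bound. Ratios outside the window calls carry no pseudocount. Named peaks are the 5 highest of each NKRF library. All T and deletion positions past their thresholds are named. Python 3.11.15 and scipy 1.17.1 were used.

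The members and lists were chosen with earlier results of these data known. The fourth NKRF PAR peak was added to the printed sequences, and the stretches between blocks were chosen, after their values were seen. Alternatives were other scales, pseudocounts, window sizes, borders, read minimums and thresholds.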

Additional observations from a re-analysis of the deposited data

Results flagged for a closer look

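Positions 1101 to 1155, next to 28S, moved in opposite directions in the 2 crosslinking modes on the scale of 47S shares. The log2 ratio of NKRF to tag alone was 2.23 with UV and -1.04 with PAR. The difference was not tested, since each mode has 1 library per group, and the PAR ratio had an interval of 0.189 to 1.91 with 4.04 reads behind the tag-only value. Per 1000000 reads both ratios were above 1, at 11.8 (9.69 to 14.5) for UV and 6.03 (2.25 to 22.8) for PAR.

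UV substitutions at bases other than T, which none of the comparisons used, were frequent at the edge of the highest NKRF UV peak and elsewhere. Position 1020 was substituted in 36.4% of 88 NKRF UV reads and position 733 in 40.5% of 42, with 0 tag-only UV reads at both. At other positions the few tag-only UV reads could carry substitutions too. Position 246 was substituted in 28.3% of 46 NKRF reads and 3 of 6 tag-only reads, and position 1013 in 28.1% of 114 and 1 of 1. At position 585 it was 25.7% of 377 NKRF reads and 0 of 2 tag-only reads. Positions 496 and 497 were picked because their NKRF interval lay above that of the tag alone. Position 496, a C, was substituted in 28.3% of 4625 NKRF UV reads (27.1 to 29.7%) and in 0 of 27 tag-only UV reads (up to 12.8%). Position 497, also a C, was substituted in 33.2% of 4761 NKRF UV reads (31.8 to 34.5%) and in 1 of 27 tag-only reads (0.0937 to 19%). The NKRF intervals lay above the tag-only intervals at both. They lie 2 and 3 nt from the T at 494 that was substituted in 69.6% of NKRF PAR reads.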

How the results depend on the processing

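No paired analysis was possible because each group has 1 library. On 50 recomputed values of the main results, 27 stayed within the interval or within 1.5 times the count and 23 moved. Some settings change the quantity itself, such as a first part of 50 or 200 nt or windows of 100 nt. Part of the moves was therefore fixed by the setting, and the tally is no measure of robustness. Shares and counts of a single library cannot change sign, but 2 orders between them turned, that of the UV and PAR ratios per 1000000 reads and that of the tag-only and NKRF UV shares of the first 50 and 200 nt. For the ITS2 share the UV ratio of 16.6 became 39.9 per 1000000 reads, 4.27 as a share of spacer coverage and 14.3 without the highest window. The PAR ratio of 5.74 became 68.4 and 1.30 on the first 2 of these scales. As shares of spacer coverage 15 of 23 windows were called higher with UV and 9 of 22 with PAR. At a pseudocount of 10, 9 of 22 were with PAR, and with windows of 100 nt 11 of 11 were with UV and 7 of 11 with PAR. The first 50 nt held 1.11%, 1.24% and 0.796% of ITS2 coverage in the tag-only UV, NKRF UV and NKRF PAR libraries and the first 200 nt 15.9%, 18.3% and 12.9%, so the lower UV share with NKRF at 100 nt was not seen at 50 or 200 nt. Without the 20 nt next to 5.8S the first 100 nt held 2.01% with NKRF UV and 4.81% with the tag alone, the same order as with them. With edges at 25% of the height there were 5 NKRF UV and 10 NKRF PAR peaks, and with a minimum of 20% of the maximum 6 NKRF UV peaks. With at least 50 reads 4 T were substituted in at least 50%, and 57 T were substituted in at least 20%, to which the median distance from the deletion positions was 11 nt. With edges at 25% the UV ratio of the peak with its summit at 408 was 17.3 in place of 67.9, and that of the PAR peak at 414 was 24.5 in place of 80.0. Tag-only PAR depth, 16.2 reads over ITS2, limits every PAR ratio.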

Other observations

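NKRF PAR coverage was 0 in 5 stretches of ITS2, 67 positions or 5.8% of its length, at 227 to 257, 585 to 591, 730 to 733, 882 to 885 and 933 to 953. NKRF UV coverage there was 9 to 347 normalised hits. At 7 positions other than T, at least 50% of NKRF UV reads were deleted or substituted, and 5 of the 7 lay in these stretches, in 4 of the 5. The 5 were positions 591 (65.0% of 246 reads changed), 730 (61.1% of 18), 882 (100% of 21), 938 (100% of 30) and 940 (93.3% of 15). The tag-only UV library had 2 reads at 591, of which 1 was deleted, 1 read each at 938 and 940, both substituted, and 0 reads at 730 and 882, so no difference from the tag alone could be read there. The other 2 were 543 and 584, next to a rise and a fall of the NKRF PAR profile. Of the stretches, 3 held 0 T and the other 2 held 1 T each. These values were looked at after the profiles were seen, and no test was run on them.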
